A study of Homo sapiens with 3 samples.

Results

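The interleukin-1 family genes IL1A, IL1B, IL18 and IL33, the antagonist gene IL1RN and the receptor genes IL1R1, IL1RAP and IL1R2 were examined across 3 libraries of CaSki cells. The 8 genes were chosen by their place in the pathway, as ligands, antagonist, signalling receptors and decoy receptor, and with FPKM values of these same libraries already known, so that their differences are given as a description. All 8 symbols were found among the 23277 gene symbols of the files, and 5 of them (IL1A, IL1RN, IL1R1, IL1RAP and IL1R2) were among the 11401 genes whose mean over the libraries was at least 1 FPKM. FPKM, the unit inferred for the deposited values, is a level corrected for the length of the transcript and for the number of mapped fragments. IL1B, IL18 and IL33 lay under that limit.

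CaSki is a long-established human line, labelled as epidermoid carcinoma of the cervix. The 3 groups were cells carrying pMSCV/FLAG-NANOG and given siRNA against HDAC1 (NANOG siHDAC1), cells carrying pMSCV/FLAG-NANOG and given the control siRNA against GFP (NANOG siGFP), and cells carrying the pMSCV empty vector and given the GFP siRNA (empty vector siGFP). The title of the series names the question, which target genes are regulated by a NANOG-HDAC1 axis; NANOG is a homeobox factor of pluripotent cells and HDAC1 a histone deacetylase. pMSCV is a retroviral vector that drives the insert from its viral promoter, and the labels do not say whether a pool or a clone was used or how long after transfection RNA was taken. Each group held 1 library, so differences could not be set against a spread between cultures, and none is tested. The effect of HDAC1 siRNA without NANOG was not analysed here.

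Interleukin-1 alpha and beta act through the receptor encoded by IL1R1, which pairs with the accessory protein encoded by IL1RAP and signals through MYD88 and IRAK kinases to NF-kB and MAP kinases. The pathway is restrained at the cell surface by the antagonist encoded by IL1RN, which occupies IL1R1 without signalling, and by the decoy receptor encoded by IL1R2, which binds ligand but lacks a cytoplasmic signalling domain. Squamous epithelia are known for holding stores of interleukin-1 alpha and of the antagonist, and interleukin-1 alpha released from damaged keratinocytes acts as an alarm signal on neighbouring cells.

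NANOG was at 325 FPKM in NANOG siHDAC1 cells, 298 FPKM in NANOG siGFP cells and 0.0357 FPKM in empty vector siGFP cells. HDAC1 stood at 12.8 FPKM in NANOG siHDAC1 cells, 108 FPKM in NANOG siGFP cells and 19.02 FPKM in empty vector siGFP cells, so it was far higher in the NANOG siGFP library than in either other one. Relative depth was read from ratios of low values, which step by single fragments. By the most frequent ratio, the value of 1 fragment was the same in the NANOG siHDAC1 and NANOG siGFP libraries. It was 1.019 times as high in the empty vector siGFP library. Only ratios close to 1 were searched, so this step could not show a larger difference in depth. Absolute depth is unknown. Of 10 squamous and epithelial markers 9 were at 1 FPKM or more in every library; the exception was TP63, at 1.004 FPKM, 0.785 FPKM and 1.29 FPKM in NANOG siHDAC1, NANOG siGFP and empty vector siGFP cells. Of 10 leukocyte markers 2 were, CD68 and CSF1R, and the leukocyte marker sum was 58.2 FPKM in NANOG siHDAC1 cells, 64.9 FPKM in NANOG siGFP cells and 55.7 FPKM in empty vector siGFP cells. Most of that sum was CD68 alone, at 53.5, 61.2 and 50.7 FPKM in the same order. The defining leukocyte gene PTPRC had no signal with NANOG, both libraries being at 0, and 0.0148 FPKM in empty vector siGFP cells, and MS4A1 was listed at 0 in every library. The fibroblast marker sum was 2.73, 4.75 and 4.07 FPKM and the endothelial one 0.637, 0.603 and 0.480 FPKM in NANOG siHDAC1, NANOG siGFP and empty vector siGFP cells. In RNA from whole cultures, fewer cells of a type and less RNA per cell cannot be told apart.

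Among the inhibitors of the pathway, both measured genes were lower with NANOG, and they differed in what accompanied HDAC1 siRNA. IL1RN stood at 3.44 FPKM in NANOG siHDAC1 cells, 3.55 FPKM in NANOG siGFP cells and 12.1 FPKM in empty vector siGFP cells. Both NANOG libraries were thus low and close to each other. The difference of log2(FPKM + 1), the scale used for all differences here, was -1.53 for NANOG siGFP against empty vector siGFP, the 38th lowest of 11401 genes, and -1.56 for NANOG siHDAC1 against empty vector siGFP, the 27th lowest. Between NANOG siHDAC1 and NANOG siGFP it was -0.04, a sign that turned to 0.12 under TPM, where the median over all genes was 0.18 in place of 0.01. Small RNA symbols held 15.99% of summed FPKM in NANOG siHDAC1 cells, 23.1% in NANOG siGFP cells and 21.2% in empty vector siGFP cells, and their part in that shift was not tested.

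IL1R2 stood at 9.73 FPKM in NANOG siHDAC1 cells, 4.58 FPKM in NANOG siGFP cells and 11.9 FPKM in empty vector siGFP cells. Here the NANOG siGFP library alone was low. The difference was -1.21 for NANOG siGFP against empty vector siGFP, the 88th lowest of all genes kept, and 0.94 for NANOG siHDAC1 against NANOG siGFP, the 12th highest. As a plain ratio of FPKM the second of these is 2.12-fold. It misses a 2-fold difference only through the added 1 FPKM, and with 0.5 or 0.1 FPKM added it is 1.01 or 1.07. Both IL1R2 differences share the NANOG siGFP library; without that library IL1R2 differed by -0.27 between NANOG siHDAC1 and empty vector siGFP cells, where it was 0.816 times as high.

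The sequence around the annotated starts of these genes is shown because IL1RN and IL1R2 gave the largest member differences, and that of IL1A because it is the most abundant ligand. The windows hold 250 bases before and 50 bases after a start, from RefSeq on GRCh38.p14, all from chromosome 2, whereas the expression values were made on hg19. Of the 8 members 7 had such windows, 15 in all. IL1RN is transcribed from separate starts that give a secreted protein and intracellular forms, and the files hold 1 value per symbol, so which start was used in these cells is not shown by them. Capitals mark TGANTCA, the string bound by AP-1, or TATAAA, the string of the TATA box, searched on both strands.
IL1R2, chr2:101991710-101992009, plus strand: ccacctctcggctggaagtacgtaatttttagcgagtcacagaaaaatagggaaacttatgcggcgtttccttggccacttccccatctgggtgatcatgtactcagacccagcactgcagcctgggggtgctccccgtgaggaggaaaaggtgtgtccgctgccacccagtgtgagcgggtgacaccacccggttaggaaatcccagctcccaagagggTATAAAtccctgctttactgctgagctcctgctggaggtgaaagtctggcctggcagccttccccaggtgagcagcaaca
IL1R2, chr2:101998711-101999010, plus strand: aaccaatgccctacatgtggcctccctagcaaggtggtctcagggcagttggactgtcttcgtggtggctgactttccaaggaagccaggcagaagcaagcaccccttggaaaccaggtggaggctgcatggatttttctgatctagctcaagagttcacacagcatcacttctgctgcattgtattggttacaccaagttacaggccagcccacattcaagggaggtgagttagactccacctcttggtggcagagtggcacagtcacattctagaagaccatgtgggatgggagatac
IL1RN, chr2:113117721-113118020, plus strand: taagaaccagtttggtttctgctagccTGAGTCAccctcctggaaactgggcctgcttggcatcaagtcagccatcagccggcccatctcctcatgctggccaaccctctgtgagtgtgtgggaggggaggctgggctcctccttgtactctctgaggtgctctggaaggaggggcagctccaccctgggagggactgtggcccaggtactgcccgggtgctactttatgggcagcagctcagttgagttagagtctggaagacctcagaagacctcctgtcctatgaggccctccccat
IL1RN, chr2:113127348-113127647, plus strand: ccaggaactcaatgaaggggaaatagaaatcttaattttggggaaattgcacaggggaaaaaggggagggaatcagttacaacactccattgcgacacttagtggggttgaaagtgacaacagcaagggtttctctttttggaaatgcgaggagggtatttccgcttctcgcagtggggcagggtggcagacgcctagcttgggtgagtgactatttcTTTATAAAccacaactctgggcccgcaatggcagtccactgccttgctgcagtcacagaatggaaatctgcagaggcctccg
IL1A, chr2:112784351-112784650, minus strand: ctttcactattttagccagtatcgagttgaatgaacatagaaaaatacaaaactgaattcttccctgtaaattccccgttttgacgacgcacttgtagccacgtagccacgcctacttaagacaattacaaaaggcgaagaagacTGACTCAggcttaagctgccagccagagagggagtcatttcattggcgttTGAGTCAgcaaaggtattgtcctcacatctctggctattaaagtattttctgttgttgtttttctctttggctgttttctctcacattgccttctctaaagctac

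The upstream IL1R2 window and the downstream IL1RN window of those shown each held a TATA box at 30 bases before the start; in IL1RN a match on the other strand at 32 bases before the start overlaps it. The IL1A window shown held TGANTCA at 105 and at 55 bases before the start, and the upstream IL1RN window held it at 223 bases before the start. Over all member windows TGANTCA was in 3 of 15 and TATAAA in 4 of 15, against 7.71% and 11.5% of the 35116 windows of all genes. These counts take the strings at any position. TATAAA lay at 239 bases before the start in an IL1A window, and at 229 and 124 bases before it in an IL1R1 window. The windows are not independent, since the 2 IL1A windows overlap and hold the same pair of TGANTCA matches, which are thus counted in both. The other IL1A window and a further IL1RN window, which holds none of these strings, are not shown. GGANNTTCC, a string like NF-kB sites, and TAATGG, a string bound by the NANOG homeodomain, were in 0 of 15 member windows, against 4.56% and 6.81% of all windows. These matches describe the letters only.

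Of the ligands, IL1A was the most abundant in every library. It stood at 4.55 FPKM in NANOG siHDAC1 cells, 3.18 FPKM in NANOG siGFP cells and 3.19 FPKM in empty vector siGFP cells. The siGFP libraries were level, and the HDAC1 siRNA library was higher. The difference was 0.41 for NANOG siHDAC1 against NANOG siGFP, a 1.43-fold ratio of FPKM and the 276th highest of all genes kept, and -0.0030 for NANOG siGFP against empty vector siGFP, a sign that turned under 2 of the rescalings. IL1B, whose product needs cleavage by caspase-1, stood at 0.431 FPKM in NANOG siHDAC1 cells, 0.254 FPKM in NANOG siGFP cells and 0.155 FPKM in empty vector siGFP cells. It too was highest in the HDAC1 siRNA library, but IL1A was 10.6, 12.6 and 20.6 times as high in NANOG siHDAC1, NANOG siGFP and empty vector siGFP cells, and no difference is counted for IL1B because it lay under the limit of 1 FPKM.

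IL18, another ligand activated by caspase-1, stood at 0.0343 FPKM in NANOG siHDAC1 cells, 0.137 FPKM in NANOG siGFP cells and 0.175 FPKM in empty vector siGFP cells. After correction for the value of 1 fragment, these stand as 1 to 4 to 5 within 1%, the ratios that single fragments would give. A difference in IL18 was therefore not detectable at this depth. IL33, a nuclear alarm cytokine of barrier epithelia, was at 0.0157 FPKM in NANOG siHDAC1 cells and listed at 0 in both other libraries.

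**Figure D1:**
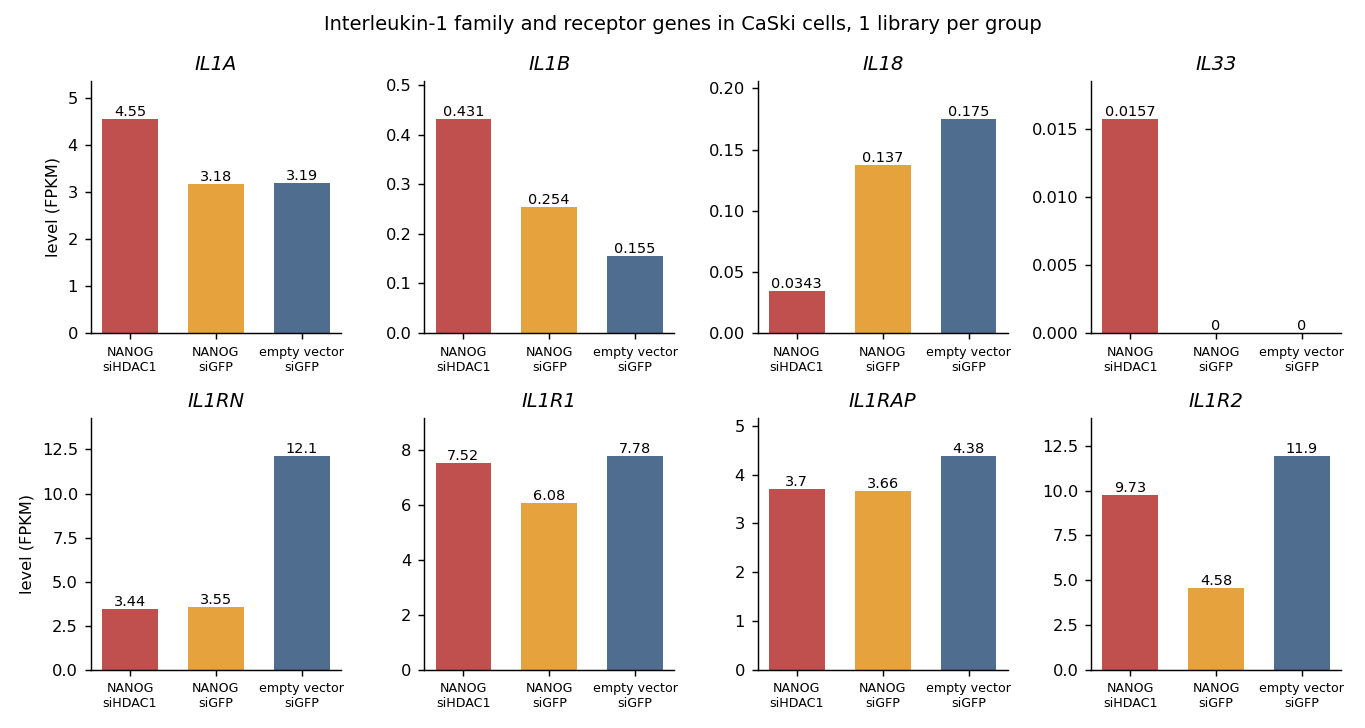
Level of each of the 8 genes (vertical axis, FPKM, from 0 and with its own range in each panel) in the 3 libraries; each bar is 1 library, so there is no error bar. IL1RN is low in both NANOG libraries (3.44 and 3.55 FPKM, against 12.1 FPKM in empty vector siGFP cells), IL1R2 in the NANOG siGFP library alone (4.58 FPKM), and IL1A is highest in the NANOG siHDAC1 library (4.55 FPKM).

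The signalling receptor genes varied least among the members kept. IL1R1 stood at 7.52 FPKM in NANOG siHDAC1 cells, 6.08 FPKM in NANOG siGFP cells and 7.78 FPKM in empty vector siGFP cells. Its lowest value was in the same library as that of IL1R2, with differences of -0.31 for NANOG siGFP against empty vector siGFP and 0.27 for NANOG siHDAC1 against NANOG siGFP. IL1RAP stood at 3.70, 3.66 and 4.38 FPKM in NANOG siHDAC1, NANOG siGFP and empty vector siGFP cells. Its differences were -0.21 for NANOG siGFP against empty vector siGFP and 0.01 for NANOG siHDAC1 against NANOG siGFP. IL1RAP is known to give membrane and soluble proteins by splicing, which a value per symbol does not separate.

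Of the 5 members kept, 2 were at least 2-fold lower in NANOG siGFP than in empty vector siGFP cells (IL1RN and IL1R2) and 0 at least 2-fold higher, beside 1.22% and 0.675% of all genes kept. Their median difference was -0.31, and that of all genes -0.0062. Between NANOG siHDAC1 and NANOG siGFP cells 0 of 5 were at least 2-fold higher and 0 of 5 lower, beside 0.0877% and 0.211% of all genes, with a median of 0.27 for the members and 0.01 for all genes. Between NANOG siHDAC1 and empty vector siGFP cells 1 of 5, IL1RN, was at least 2-fold lower and 0 higher, beside 0.824% and 0.368% of all genes, with a median of -0.19 for the members and -0.0010 for all genes. Since the members were picked with these values known, nothing is read from the counts.

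**Figure D2:**
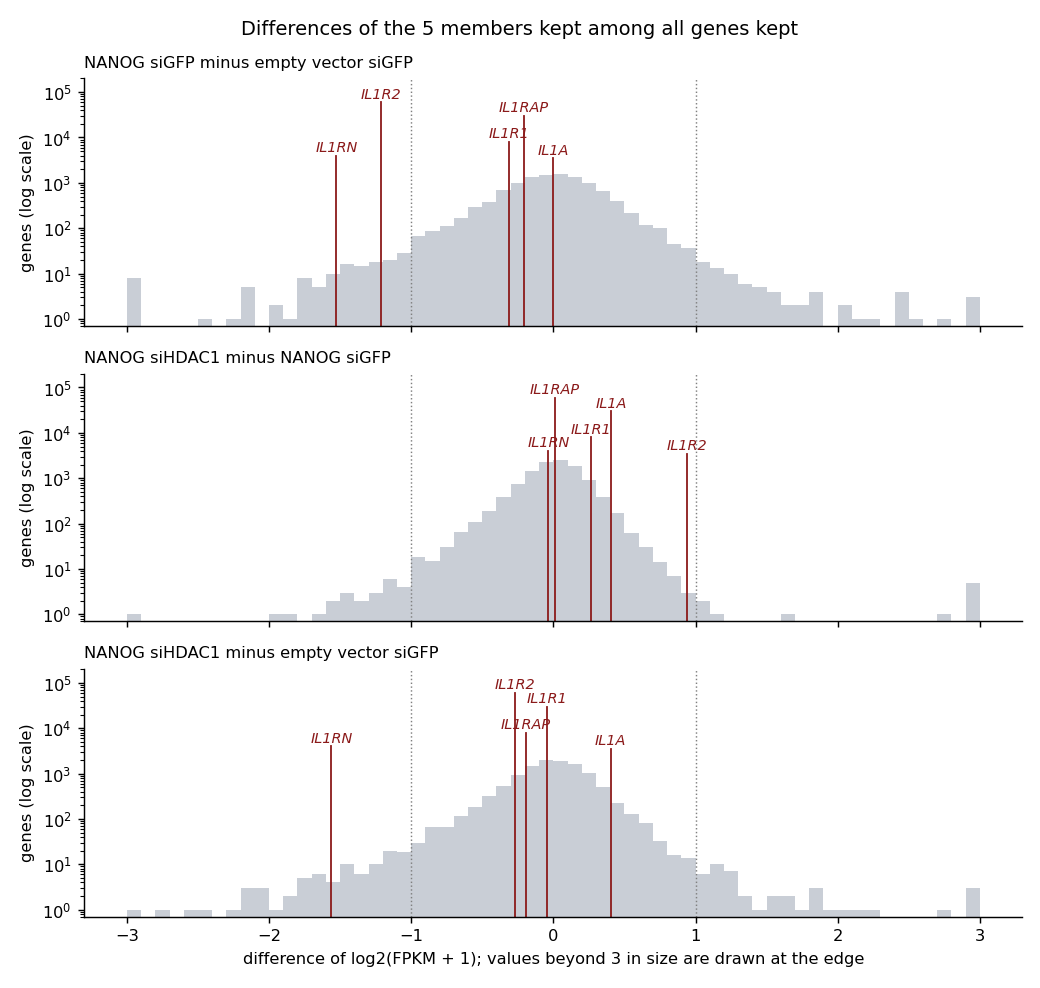
Number of genes (vertical axis, log scale) by difference of log2(FPKM + 1) (horizontal axis) in 3 comparisons, for the 11401 genes kept; red lines mark the 5 members kept, at heights chosen for legibility, dotted lines mark 2-fold, and values beyond 3 in size are drawn at the edge. IL1RN lies at -1.53 and -1.56 in both comparisons of a NANOG library with empty vector siGFP, while IL1R2 lies at -1.21, 0.94 and -0.27 from top to bottom.

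The levels of the members relative to each other were compared within each library, where scaling between libraries plays no part. IL1RN over IL1A, the antagonist over the main ligand, was 0.757 in NANOG siHDAC1 cells, 1.12 in NANOG siGFP cells and 3.79 in empty vector siGFP cells. The ratio was thus lowest where NANOG and HDAC1 siRNA were combined and highest without NANOG. IL1R2 over IL1R1, the decoy over the signalling receptor, was 1.29 in NANOG siHDAC1 cells, 0.754 in NANOG siGFP cells and 1.53 in empty vector siGFP cells, so that IL1R1 exceeded IL1R2 in the NANOG siGFP library alone. In order of level, IL1R2 and IL1R1 came first in NANOG siHDAC1 cells and IL1RN last of the 5, whereas IL1RN and IL1R2 came first in empty vector siGFP cells and IL1A last. RNA levels do not give the amounts of protein at the receptor.

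**Figure D3:**
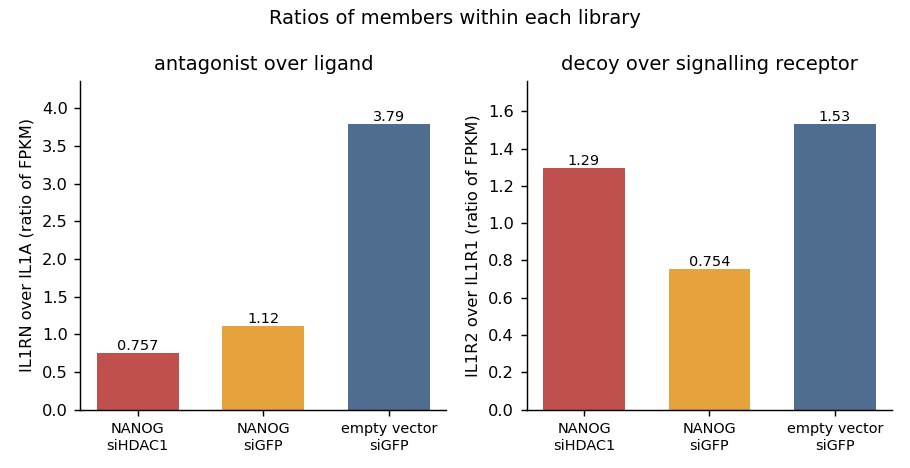
Ratio of FPKM of IL1RN over IL1A (left) and of IL1R2 over IL1R1 (right) in each library; each bar is 1 library and axes start at 0. The antagonist ratio is 0.757 and 1.12 in the NANOG libraries and 3.79 in empty vector siGFP cells, and the decoy ratio is lowest, at 0.754, in the NANOG siGFP library.

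Position was not used to choose the members. Of the 8, 5 lie on chromosome 2 in 2 clusters of related genes, a grouping made after the values were seen. In the receptor cluster the order in RefSeq is IL1R2, IL1R1, IL1RL2, IL1RL1, IL18R1 and IL18RAP. Of these 4 were kept, and 4 of 4 were lower in NANOG siGFP than in empty vector siGFP cells (median -0.37), beside 50.8% of all genes lower and an all-gene median of -0.0062. IL1R2 was farthest and IL1RL2, the receptor of interleukin-36, nearest to 0 at -0.08. The 4 include the members IL1R2 and IL1R1, which were picked with their values known. IL18R1, a subunit of the interleukin-18 receptor, was at 2.80 FPKM in NANOG siHDAC1 cells, 2.90 FPKM in NANOG siGFP cells and 4.22 FPKM in empty vector siGFP cells. The ligand cluster runs from IL1A and IL1B through the interleukin-36 genes to IL1RN, and 3 of its 9 genes were kept. IL36RN, the antagonist of the interleukin-36 receptor, was at 2.01 FPKM in NANOG siHDAC1 cells, 1.52 FPKM in NANOG siGFP cells and 3.89 FPKM in empty vector siGFP cells, a difference of -0.96 for NANOG siGFP against empty vector siGFP. IL1A, also kept, was level between the siGFP libraries.

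**Figure D4:**
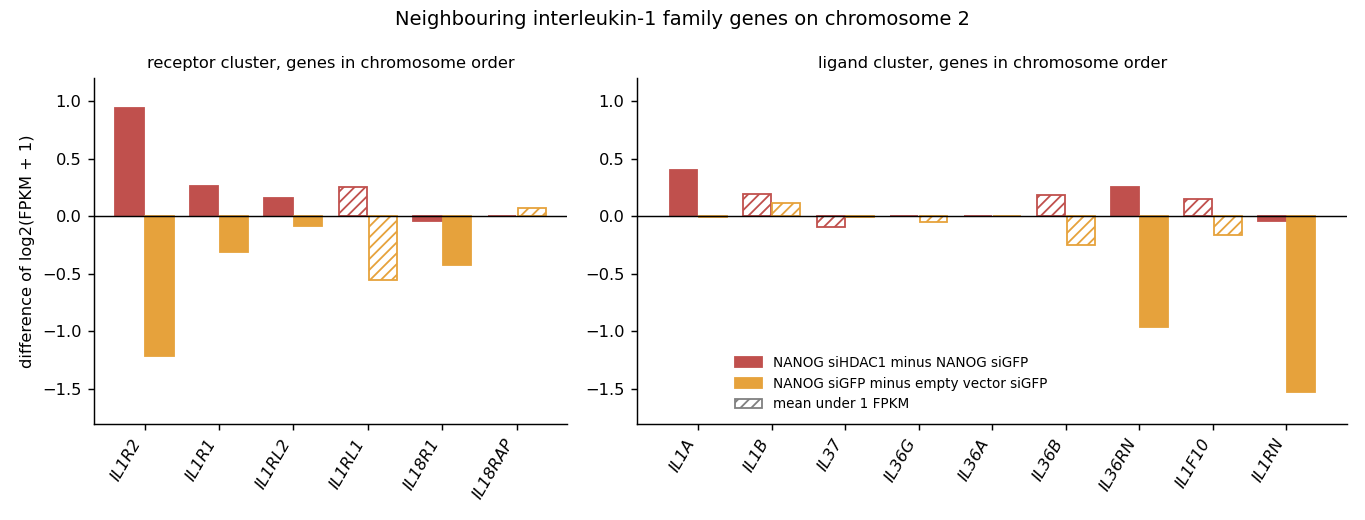
Difference of log2(FPKM + 1) (vertical axis) for the genes of the receptor cluster (left) and the ligand cluster (right) in chromosome order, not to distance, for NANOG siHDAC1 minus NANOG siGFP and NANOG siGFP minus empty vector siGFP, which share the NANOG siGFP library; hatched bars are genes with a mean under 1 FPKM. The longest bars are those of IL1RN (-1.53), IL1R2 (-1.21 and 0.94) and IL36RN (-0.96).

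Other genes of the family and of the pathway were described from 4 lists. Of 14 other interleukin-1 family ligands and receptors, 5 were kept, and 5 of 5 were lower in NANOG siGFP than in empty vector siGFP cells (median -0.42, against -0.0062 for all genes, of which 50.8% were lower). IL36RN, IL1RL2 and IL18R1 among them were already counted in the clusters above, so only SIGIRR and IL18BP are added here. With no limit on low values the list's median was -0.15. None of the 5 was 2-fold apart on the log2(FPKM + 1) scale, beside 0.675% of all genes at least 2-fold higher and 1.22% lower. IL36RN missed only through the added 1 FPKM, its plain ratio of FPKM being 0.390. After IL36RN the farthest was SIGIRR, an inhibitory receptor of the family, at 19.2 FPKM in NANOG siHDAC1 cells, 16.8 FPKM in NANOG siGFP cells and 26.9 FPKM in empty vector siGFP cells, a difference of -0.65. IL18BP, the soluble binder of interleukin-18, differed by -0.21. Between NANOG siHDAC1 and NANOG siGFP cells 3 of the 5 were higher and 2 lower (median 0.16), with IL36RN at 0.26 and SIGIRR at 0.18. Of all genes 53.4% were higher there, with a median of 0.01.

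Genes for processing and release of the ligands differed little among those kept. Of 17 such genes 11 were kept, 5 higher and 6 lower in NANOG siGFP than in empty vector siGFP cells (median -0.07) and again 5 higher and 6 lower in NANOG siHDAC1 than in NANOG siGFP cells (median -0.09; 0.08 under TPM, which moved all genes to 0.18). Of all genes 50.8% were lower in the first comparison and 53.4% higher in the second. None of the 11 was at least 2-fold apart in either. Of all genes 0.675% were at least 2-fold higher and 1.22% lower in the first, and 0.0877% and 0.211% in the second. CASP1, the protease of interleukin-1 beta and interleukin-18, was at 1.74 FPKM in NANOG siHDAC1 cells, 2.19 FPKM in NANOG siGFP cells and 2.16 FPKM in empty vector siGFP cells. CARD8, an inflammasome sensor, differed most of those kept, by 0.50 and -0.32 in these comparisons. NLRP10, named after its values were seen, was not kept, its mean being 0.882 FPKM. It stood at 0.585 FPKM in NANOG siHDAC1 cells, 0.311 FPKM in NANOG siGFP cells and 1.75 FPKM in empty vector siGFP cells. Its difference for NANOG siGFP against empty vector siGFP was -1.07, so the count above depends on the limit of 1 FPKM.

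In the list of receptor signalling to NF-kB and MAP kinases 20 of 24 genes were kept. Of these 4 were higher and 16 lower in NANOG siGFP than in empty vector siGFP cells (median -0.12), beside 50.8% of all genes lower. In NANOG siHDAC1 against NANOG siGFP cells 15 were higher and 5 lower (median 0.11), beside 53.4% of all genes higher. Both comparisons share the NANOG siGFP library. Without it, in NANOG siHDAC1 against empty vector siGFP cells, 9 were higher and 11 lower (median -0.0087, against -0.0010 for all genes). TAB3, an adaptor of the kinase TAK1, was the 1 gene at least 2-fold apart in these comparisons. It stood at 14.7 FPKM in NANOG siHDAC1 cells, 12.3 FPKM in NANOG siGFP cells and 31.6 FPKM in empty vector siGFP cells. The difference was -1.30 for NANOG siGFP against empty vector siGFP, beside 1.22% of all genes at least 2-fold lower. It was -1.05 for NANOG siHDAC1 against empty vector siGFP, beside 0.824%. The scaffold gene SQSTM1 was higher with NANOG by 0.98, and IRAK4, the first kinase after MYD88, differed by -0.41, both for NANOG siGFP against empty vector siGFP.

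Genes that interleukin-1 is known to induce were measured in 29 cases and kept in 21. In NANOG siGFP against empty vector siGFP cells 10 were higher and 11 lower (median -0.10, against -0.0062 for all genes), with 1 at least 2-fold higher, the collagenase MMP1 (2.53), and 2 at least 2-fold lower, the acute phase gene SAA1 (-1.51) and the iron-binding LCN2 (-1.09), beside 0.675% of all genes called higher and 1.22% lower. MMP1 was at 5.51 FPKM in NANOG siHDAC1 cells, 7.86 FPKM in NANOG siGFP cells and 0.536 FPKM in empty vector siGFP cells. It passed the limit of 1 FPKM only through the NANOG libraries, where it was high, so its call is not independent of that limit. MMP3 and PTGES, of which PTGES was named after its values were seen, were 2.15-fold and 2.23-fold higher as plain ratios and missed the count only through the added 1 FPKM. In NANOG siHDAC1 against NANOG siGFP cells 18 were higher and 3 lower (median 0.35, against 0.01 for all genes, of which 53.4% were higher). At least 2-fold higher was 1, the chemokine CCL20 (1.68), beside 0.0877% of all genes, and the growth factor gene CSF2 missed through the added 1 FPKM at a plain ratio of 2.04. The chemokine gene IL8 was at 86.3 FPKM in NANOG siHDAC1 cells, 43.3 FPKM in NANOG siGFP cells and 37.2 FPKM in empty vector siGFP cells. MMP3, a matrix protease, was at 15.9 FPKM in NANOG siHDAC1 cells, 9.10 FPKM in NANOG siGFP cells and 4.23 FPKM in empty vector siGFP cells. In NANOG siHDAC1 against empty vector siGFP cells, which leaves out the NANOG siGFP library, 16 were higher and 5 lower (median 0.30, against -0.0010 for all genes, of which 49.8% were higher). Of these 6, MMP1 among them, were at least 2-fold higher and 1 lower, beside 0.368% and 0.824% of all genes. SAA2, named after its values were seen, was not kept at a mean of 0.895 FPKM. Its difference here was -1.16, with 0.309 FPKM in NANOG siHDAC1 cells and 1.92 FPKM in empty vector siGFP cells. CXCL3, named after its values were seen, missed through the added 1 FPKM at a plain ratio of 2.16. Many stimuli other than interleukin-1 induce these genes, and the part of the members in their levels was not tested.

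**Figure D5:**
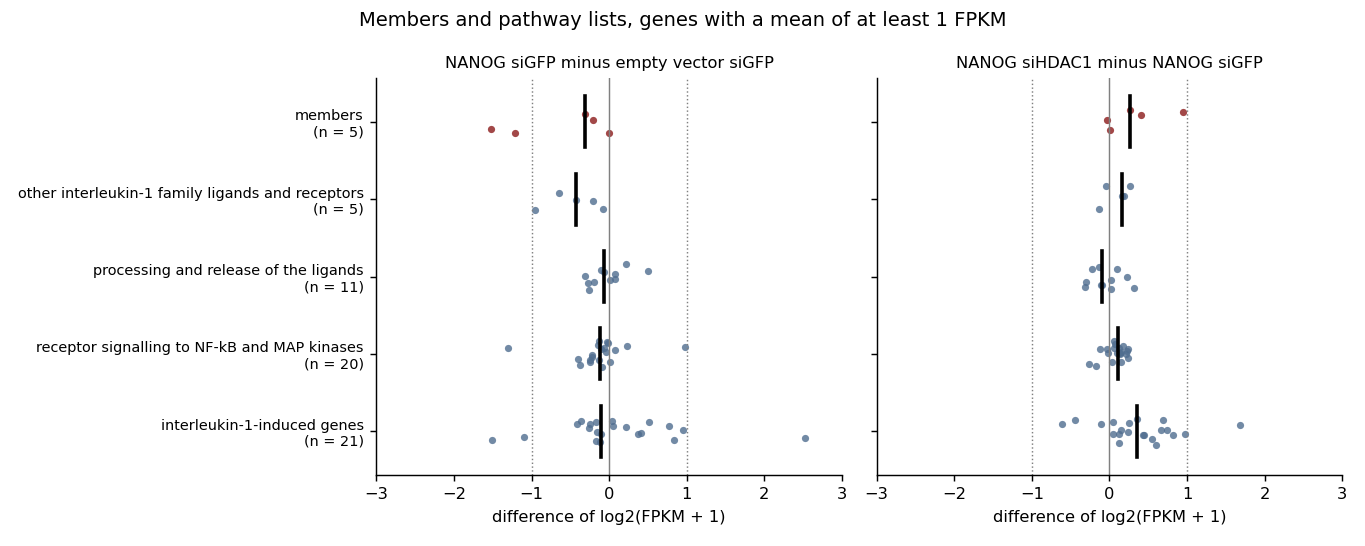
Difference of log2(FPKM + 1) (horizontal axis) for NANOG siGFP minus empty vector siGFP (left) and NANOG siHDAC1 minus NANOG siGFP (right), which share the NANOG siGFP library; each point is a gene with a mean of at least 1 FPKM, black bars are medians and dotted lines mark 2-fold. The interleukin-1-induced genes have a median of -0.10 on the left and 0.35 on the right.

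The genes whose pattern over the 3 libraries was nearest to a member, by the distance of their differences among 8460 genes that averaged 5 FPKM or more, are given for the members that ranged by 0.5 or more on the log2 scale. For IL1RN the nearest were SAA1 (distance 0.08), the basal keratin gene KRT15 (0.08) and LINC00263 (0.10). SAA1 was at 3.61 FPKM in NANOG siHDAC1 cells, 3.47 FPKM in NANOG siGFP cells and 11.8 FPKM in empty vector siGFP cells. For IL1R2 the nearest genes were farther, the activin subunit gene INHBA (0.25), the kinase gene HIPK3 (0.26) and SLC16A13 (0.30). INHBA was at 71.8 FPKM in NANOG siHDAC1 cells, 39.5 FPKM in NANOG siGFP cells and 78.9 FPKM in empty vector siGFP cells. Likeness over 3 libraries is a description only.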

How the data were processed

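RNA-seq libraries of CaSki cells, 1 for each of 3 groups, were grouped by their titles. Per the labels' protocols, RNA was extracted with Trizol and 2 ug went into TruSeq stranded total RNA libraries. Per the submitters' processing notes, the tools were TopHat2 and Cufflinks and the build hg19. Their versions, the annotation and any use of strand were not given in the sources used. The authors deposited 1 value per gene symbol, with no unit in the file headers. The deposited values are taken as FPKM, which Cufflinks gives, since they are fractional and their sums differ between libraries. FPKM is relative to each library's total, so a few abundant RNAs lower all other values, and Cufflinks assigns shared fragments by estimate.

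Differences of log2(FPKM + 1) were computed for genes averaging 1 FPKM or more, without small RNA symbols. The added 1 FPKM understates differences of low genes. A difference of at least 1 in size (2-fold) was counted. Without replicates no test was made. Relative depth was the most frequent ratio among 2158 genes under 0.3 FPKM, searched only close to 1. With it, 59.2% and 60.7% of these genes matched a ratio between whole numbers no larger than 6, within 1%. The members, lists and rules were chosen with earlier results of these data known. Named genes are the 8 members, up to 4 genes per list and comparison with the largest difference, and the 3 nearest in pattern; PTPRC and the other marker genes named check the cell type. Only the counting of differences was tested on simulated data, with changes larger than 2-fold put into genes at higher levels than any member. The motif search was checked on a short made-up sequence. The other steps were not simulated. Python 3.11.15, numpy 2.4.6, pandas 2.3.3 and matplotlib 3.10.9 were used.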

Additional observations from a re-analysis of the deposited data

How the results depend on the processing

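All 129 recomputed member differences stayed within 0.25 of the reported value. The settings were pseudocounts of 0.1 and 0.5 FPKM, no filter or one at 5 FPKM, and upper quartile, median ratio and TPM scaling. Small RNA symbols were also kept and, chosen after seeing the data, genes listed at 0 left out. The filters and these last settings only change which genes are kept, so no member difference could move under them. Only the pseudocounts and the rescalings could move one. The sign differed in 4, all reported within 0.05 of 0, which include IL1R1 in NANOG siHDAC1 against empty vector siGFP (-0.04; 0.08 under TPM). Of 108 list medians 105 stayed within 0.25. All were unchanged with small RNA symbols kept or genes listed at 0 left out. The 3 that moved were of the other family genes. With no filter theirs was -0.15 in place of -0.42 for NANOG siGFP against empty vector siGFP and -0.05 in place of -0.46 for NANOG siHDAC1 against empty vector siGFP, where a filter at 5 FPKM gave -0.19. Medians of the processing list in both NANOG siHDAC1 comparisons, and of the signalling list in NANOG siHDAC1 against empty vector siGFP, turned positive with a filter at 5 FPKM and under TPM, the signalling one also under upper quartile scaling (0.0068). With 1 library per group, spread between cultures is unknown, and low levels limit IL1B, IL18 and IL33.

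The count of members at least 2-fold apart was 2, 0 and 1 in NANOG siGFP against empty vector siGFP, NANOG siHDAC1 against NANOG siGFP and NANOG siHDAC1 against empty vector siGFP. At 3-fold it was 0 in each, for IL1RN through the added 1 FPKM: its plain ratios were 0.293 and 0.284 against empty vector siGFP, and with 0.1 FPKM added its differences were -1.74 for NANOG siGFP and -1.79 for NANOG siHDAC1. In the second it was 1, IL1R2, with 0.1 or 0.5 FPKM added, under TPM and at 1.5-fold. Counts of all genes moved by their construction with the threshold. For NANOG siGFP against empty vector siGFP, 396 higher and 600 lower genes passed 1.5-fold, 21 and 34 passed 3-fold, and 138 and 216 passed with 0.1 FPKM added. For NANOG siHDAC1 against NANOG siGFP, 77 higher and 163 lower genes passed 1.5-fold, 4 lower genes passed 3-fold, 21 and 47 passed with 0.1 FPKM added, 26 and 49 with small RNA symbols kept, 21 were higher under TPM, and 4 were higher without genes listed at 0. For NANOG siHDAC1 against empty vector siGFP, 203 and 394 passed 1.5-fold, 14 and 25 passed 3-fold, 79 were higher with 0.1 FPKM added, 27 with a filter at 5 FPKM and 70 under TPM.

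No paired analysis was possible because each group held 1 library.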
